A study of Homo sapiens with 54 samples.

Results

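Cholesterol is built from acetyl-CoA through the mevalonate pathway, and fatty acids are built from the same precursor by a separate set of enzymes. A list of 35 genes covering these routes and the handling of their products was drawn up, and the rows of the deposited expression table that the probe annotation maps to those symbols were taken. Of the 35 genes, 32 were found, among 17875 probe sets with 1 gene symbol. They fall into the sterol-sensing machinery (4 genes), sterol synthesis (16 of 18 listed), fatty acid synthesis (8) and cholesterol efflux with oxysterol production (4). FDFT1, HSD17B7 and STARD4, the only listed gene of sterol transport, are not analysed here.

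The cells were WM266-4, an established human melanoma line with an activating BRAF mutation, and RNA was read on 54 Affymetrix arrays in 18 groups of 3, lettered a, b and c. In 10 groups (30 arrays) the cells spent 3 h or 24 h with DMSO as vehicle or with 1 of 4 inhibitors. These were LGX818 (encorafenib, 0.05 uM), which blocks RAF, trametinib (0.003 uM) and MEK162 (binimetinib, 0.3 uM), which block MEK, and an unnamed ERK1/2 inhibitor (0.2 uM). In the other 8 groups (24 arrays) parental cells, or cells with an inducible shRNA that was non-targeting (NT) or labelled shERK1 or shERK2, were taken on day 3 or day 7. The shRNA cells received 100 ng/ml doxycycline; for the parental cells a label field names doxycycline while the description calls them untreated. A single cell line was used, the labels do not say whether the shRNA cells are clones or pools, and the growth protocol writes the line's name in another way for them. The labels also do not say whether arrays a, b and c came from separate cultures, so each p measures the spread between these samples, which may be technical.

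As background, sterol regulatory element-binding proteins (SREBPs), encoded by SREBF1 and SREBF2, are membrane-held transcription factors. When sterols are low, SCAP escorts them to the Golgi for cleavage, and the released fragment enters the nucleus and drives genes of sterol and fatty acid synthesis, together with the factor NF-Y. When sterols are high, INSIG proteins hold SCAP in the endoplasmic reticulum. Oxysterols such as 25-hydroxycholesterol add to that block and also activate the liver X receptors (LXRs), which drive efflux transporters. Tumour cells that divide need both lipids for membranes.

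Levels are log2 values from RMA, which normalises arrays to a common distribution, and every fold change below is a difference of such values with its standard error (SE). RMA levels carry no detection calls and are not scaled to probe or transcript length, so levels are compared within a gene only. A gene was tested where at least 1 group of its arm had a mean over 7.86 log2, the median of all values. It was called higher or lower at an adjusted p under 0.05 (limma with Benjamini-Hochberg adjustment over all genes tested). All adjusted p values below come from that test. Of the 32 genes, 30 were tested in the inhibitor arm (9703 genes in all) and 29 in the shRNA arm (9779 genes). FASN, the fatty acid synthase itself, had group means of 6.30 to 6.77 and ABCG1, an efflux transporter to mature HDL, had means of 3.92 to 4.44, so neither was tested. TM7SF2 entered the inhibitor arm only through the LGX818 24 h group (mean 7.87), and LSS and MVD entered with control means under the threshold. These 3 genes could enter because they were high in a treated group, so counts against DMSO or NT shRNA, and of time and shRNA differences, are also given over the 27 genes whose controls all lay above it.

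Array medians ran from 7.78 to 8.04 log2, and no 2 arrays held identical values. Melanocyte lineage markers were high in every array (MLANA, PMEL, TYRP1, TYR, MITF and SOX10 between 11.07 and 13.41), and 13 markers of leukocytes, epithelium, fibroblasts, endothelium, adipocytes and hepatocytes lay between 3.09 and 8.32, the highest being CD68. Array a of shERK2 at day 7 stood apart. Its GAPDH control probe sets read 1.53 higher at the 3' end than at the 5' end, against 0.139 as the lowest array, and its mean correlation with its group was 0.9905. Array c of the ERK inhibitor at 3 h came next, at 0.707. Where leaving out such an array changed a call, or moved a called value by over 1.5 times, the value without it is given; whether RNA quality has a part in them was not tested otherwise. The arrays measure bulk RNA, so fewer cells of a kind and less RNA per cell cannot be told apart.

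The promoters of 4 of the 8 genes called higher with shERK2 on both days are shown (SREBF2, INSIG1, LSS and MVK), a choice made with the values known. No share of all genes is set beside the 8, so they are not read as a trait of the list. LSS was tested in the shRNA arm only because its shERK2 groups lay over the threshold. Each of these 4 holds at least 1 motif match. Of the other 4 genes, IDI1, AACS and CH25H held no match to any motif searched, and MYLIP held 2 NF-Y boxes. Each line holds the 250 bases before the transcript start from RefSeq, build GRCh38.p14, 5′ to 3′ on the gene's strand. Capitals mark matches on either strand to the core of the sterol regulatory element (CACNCCAC), the E-box (CACGTG) and the NF-Y box (CCAAT).
SREBF2, chr22:41832855-41833104, plus strand: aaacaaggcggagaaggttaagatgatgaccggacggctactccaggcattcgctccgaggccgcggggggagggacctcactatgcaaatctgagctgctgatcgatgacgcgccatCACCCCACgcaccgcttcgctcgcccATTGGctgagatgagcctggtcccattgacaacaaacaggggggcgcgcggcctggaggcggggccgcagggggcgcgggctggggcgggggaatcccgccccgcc
INSIG1, chr7:155297628-155297877, plus strand: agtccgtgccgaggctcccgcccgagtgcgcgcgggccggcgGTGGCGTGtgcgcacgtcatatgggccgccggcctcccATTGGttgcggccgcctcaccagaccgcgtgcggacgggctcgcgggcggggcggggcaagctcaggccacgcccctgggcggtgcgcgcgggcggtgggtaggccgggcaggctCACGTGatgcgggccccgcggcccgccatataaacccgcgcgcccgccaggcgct
LSS, chr21:46228775-46229024, minus strand: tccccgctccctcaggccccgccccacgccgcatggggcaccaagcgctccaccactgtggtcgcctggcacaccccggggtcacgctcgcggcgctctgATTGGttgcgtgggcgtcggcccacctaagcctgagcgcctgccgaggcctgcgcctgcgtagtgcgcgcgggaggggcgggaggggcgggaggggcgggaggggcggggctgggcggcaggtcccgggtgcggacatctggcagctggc
MVK, chr12:109573544-109573793, plus strand: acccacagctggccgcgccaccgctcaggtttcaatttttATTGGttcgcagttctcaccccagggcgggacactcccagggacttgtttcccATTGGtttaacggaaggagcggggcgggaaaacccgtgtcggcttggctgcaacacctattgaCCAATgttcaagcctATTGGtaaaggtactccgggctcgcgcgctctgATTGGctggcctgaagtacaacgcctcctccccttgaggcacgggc

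The motifs were searched on both strands in the window from 250 bases before to 50 bases after the start, which RefSeq gives for 28 of the 32 genes and for 27305 promoters in all. The full sterol regulatory element, taken as that core with AT directly before it, was found in 1 of the 28, SREBF2, and in 0.154% of all promoters. Its core, which lies within the full element, was found in 5 of the 28 (SREBF2, INSIG1, SC5D, SCD and ABCA1) and in 5.74% of all. The NF-Y box was found in 16 of the 28, including 11 of the 14 sterol synthesis promoters matched, and in 35.7% of all promoters. MVK held 5 such boxes. The E-box was found in 5 of the 28 (SCAP, INSIG1, LSS, SC5D and ABCA1) and in 7.43% of all, and an LXR element, taken as AGGTCA repeated in the same direction with any 4 bases between, in none of the 28 and 0.0183% of all. A match is a description of letters and not of binding.

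**Figure D1:**
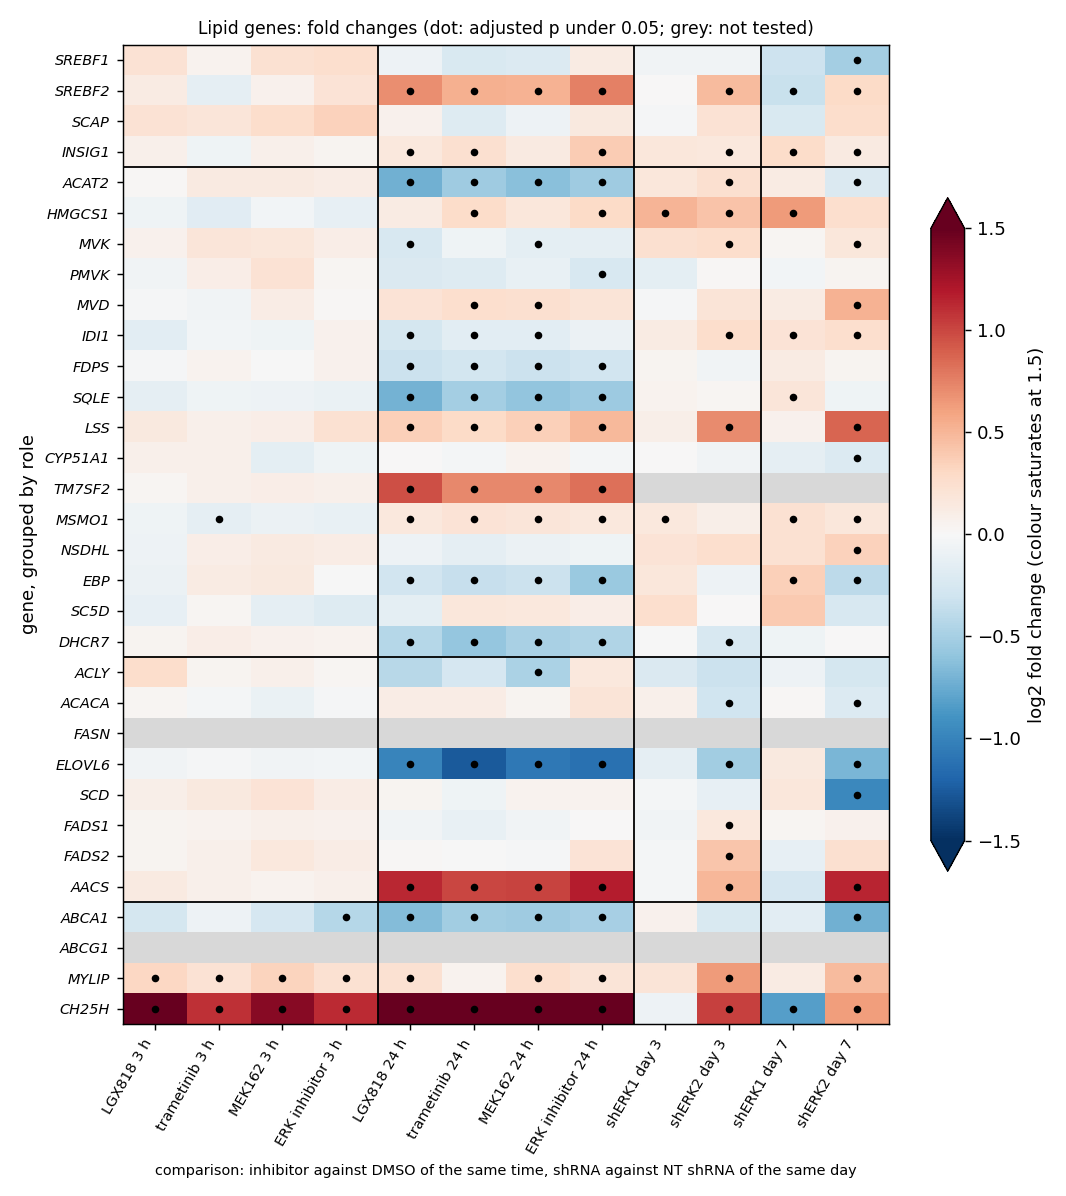
Log2 fold changes of the 32 genes (rows, grouped by role) in 12 comparisons (columns: inhibitors against time-matched DMSO, targeting shRNAs against day-matched NT shRNA). Red is higher and blue lower, a dot marks an adjusted p under 0.05, and grey marks genes not tested; the 3 h columns hold dots in few rows other than MYLIP and CH25H, while the 24 h columns carry rises and falls side by side within sterol synthesis.

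DUSP6, SPRY4, MYC and CCND1, which report ERK output, fell with each inhibitor at both times (list medians from -3.59 to -1.12). After 3 h of inhibitor the sterol and fatty acid synthesis genes had moved little, while CH25H and MYLIP were already higher with each inhibitor. CH25H encodes cholesterol 25-hydroxylase, which makes 25-hydroxycholesterol, and MYLIP (also called IDOL) is an LXR-driven ubiquitin ligase that sends the LDL receptor to degradation. With LGX818, 2 of 30 genes were higher and none lower, where 11.7% of all genes tested had changed (5.27% higher and 6.43% lower). With trametinib 2 were higher and 1 lower (background 11.3%, 5.09% higher and 6.18% lower), with MEK162 2 higher and none lower (background 13.2%, 6.38% higher and 6.77% lower), and with the ERK inhibitor 2 higher and 1 lower (background 10.4%, 5.51% higher and 4.87% lower). The median fold change of the 30 genes was 0.034, 0.067, 0.082 and 0.062 in that order, beside 0.015, 0.035, 0.033 and 0.035 for all genes. Counts over the 27 genes with controls above the threshold were the same. The 4 inhibitors share the same DMSO arrays, so their comparisons are not independent of each other, and their doses differ, so their values stand side by side without a test between them.

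CH25H read 9.58, 9.54 and 9.29 in the 3 DMSO arrays at 3 h. It read 11.06, 11.10 and 10.95 with LGX818, 10.44, 10.70 and 10.57 with trametinib, 10.85, 10.86 and 10.80 with MEK162, and 10.58, 10.53 and 10.67 with the ERK inhibitor. All 12 treated arrays lay above all DMSO arrays. The fold changes were 1.57, 1.10, 1.36 and 1.12 on the log2 scale (SE 0.087, highest adjusted p = 2.74e-10), or 2.14- to 2.96-fold.

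MYLIP read 8.04, 8.04 and 7.99 in DMSO at 3 h. It read 8.33, 8.29 and 8.38 with LGX818, 8.19, 8.24 and 8.30 with trametinib, 8.31, 8.41 and 8.36 with MEK162, and 8.2, 8.19 and 8.38 with the ERK inhibitor. Again no treated array overlapped DMSO, but the shift was small, at 0.31, 0.22, 0.33 and 0.23 (SE 0.064, adjusted p = 0.0012, 0.0251, 0.000456 and 0.0175). The call with trametinib was lost without array c of trametinib (adjusted p = 0.131) or DMSO a, b or c (0.0591, 0.0537 and 0.0818). The call with the ERK inhibitor was lost without its array c, which stood apart in the GAPDH measure (0.17, adjusted p = 0.16), or DMSO c (0.055). It was also lost with the array letter as a replicate block and only these 2 groups in the fit (adjusted p = 0.148). Lack of overlap did not single out CH25H and MYLIP. MVK arrays did not overlap DMSO with any of the 4 inhibitors at 3 h (0.07 to 0.18, lowest adjusted p = 0.0747), and SQLE and MSMO1 arrays did not with 3. No share of all genes without overlap is given.

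The other calls at 3 h were each made with a single inhibitor. MSMO1, a sterol methyl oxidase, fell by 0.13 with trametinib (SE 0.041, adjusted p = 0.0401) and lay between -0.06 and -0.11 with the others, and its call was lost in 4 of the 6 fits that left out an array (trametinib a or c, DMSO a or b; adjusted p from 0.062 to 0.252). ABCA1, which exports cholesterol to apolipoprotein A-I, fell by 0.43 with the ERK inhibitor (SE 0.13, adjusted p = 0.0312). Its DMSO arrays read 10.20, 10.63 and 10.01 and its ERK inhibitor arrays 9.98, 9.99 and 9.60, which do not overlap, and the call was lost without ERK inhibitor c (adjusted p = 0.26), DMSO a (0.0552) or DMSO b (0.286). ABCA1 read 10.29, 9.88 and 9.89 with LGX818, 10.25, 10.24 and 10.14 with trametinib and 10.10, 10.13 and 9.84 with MEK162, and these arrays did overlap DMSO.

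The remaining 26 genes passed the test with no inhibitor at 3 h. Their fold changes ran from -0.19 (SC5D with the ERK inhibitor) to 0.34 (SCAP with the ERK inhibitor). Both ends rested on array c of the ERK inhibitor, without which SC5D read 0.096 and SCAP 0.059, and the range was -0.17 (HMGCS1 with trametinib) to 0.26 (ACLY with LGX818). For MEK162, same-letter arrays deviated together in every pair (r = 0.432, 0.209 and 0.686 over all genes tested). With the array letter as a replicate block and only these 2 groups in the fit, a setting chosen after the data were seen, 12 of the 30 genes passed (9 higher and 3 lower) in place of 2. This setting also moved calls over all genes, from 1135 to 1848 of 9703 with LGX818 and from 1094 to 1843 with trametinib. The share of all genes with MEK162 is not set beside the 12, so they are not read as a trait of the list. Same-letter arrays of the ERK inhibitor also deviated together (r = 0.335, 0.375 and 0.598), and there the same setting left 2 genes, CH25H higher and ABCA1 lower, in place of 3.

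At 24 h the picture differed by branch. SREBF2 was higher with each inhibitor, sterol synthesis genes held both falls and rises, ELOVL6 and ABCA1 fell, and AACS and CH25H rose. With LGX818, 8 of 30 genes were higher and 9 lower, where 69.2% of all genes tested had changed (35.4% higher and 33.8% lower). Trametinib gave 9 and 8 (background 64.5%, 31.6% higher and 33% lower), MEK162 8 and 10 (67.2%, 33.4% and 33.8%) and the ERK inhibitor 9 and 8 (65.2%, 33.6% and 31.5%). The share of these genes that changed, 17 or 18 of 30, therefore was not above the background. Over the 27 genes with controls above the threshold, 6 were higher and 9 lower with LGX818, 6 and 8 with trametinib, 5 and 10 with MEK162, and 7 and 8 with the ERK inhibitor. Within the list, 6 genes were higher and 7 lower with all 4 inhibitors, and none was called higher with one inhibitor and lower with another. LSS and TM7SF2, whose control means lay under the threshold, are among the 6. The 4 comparisons share the same DMSO arrays. No share of all genes is set beside these counts, so they are not read as a trait of the list. At the same time, MCM2, MCM5, CCNB1 and TOP2A, which serve DNA replication and mitosis, fell with each inhibitor (list medians -3.0, -2.26, -2.99 and -2.07), where at 3 h the medians had been 0.14, 0.13, 0.12 and 0.19. Of the 6 melanocyte markers, 5, 5, 5 and 4 were higher at 24 h and 0, 1, 0 and 1 lower (medians 0.60, 0.41, 0.55 and 0.50), with TYRP1 higher by 1.79, 1.55, 1.68 and 1.64. CD68 was higher by 0.76, 0.49 and 0.36 with LGX818, MEK162 and the ERK inhibitor, and read 0.21 with trametinib (adjusted p = 0.182). Whether slower growth or the change in these markers has a part in the lipid gene changes was not tested.

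**Figure D2:**
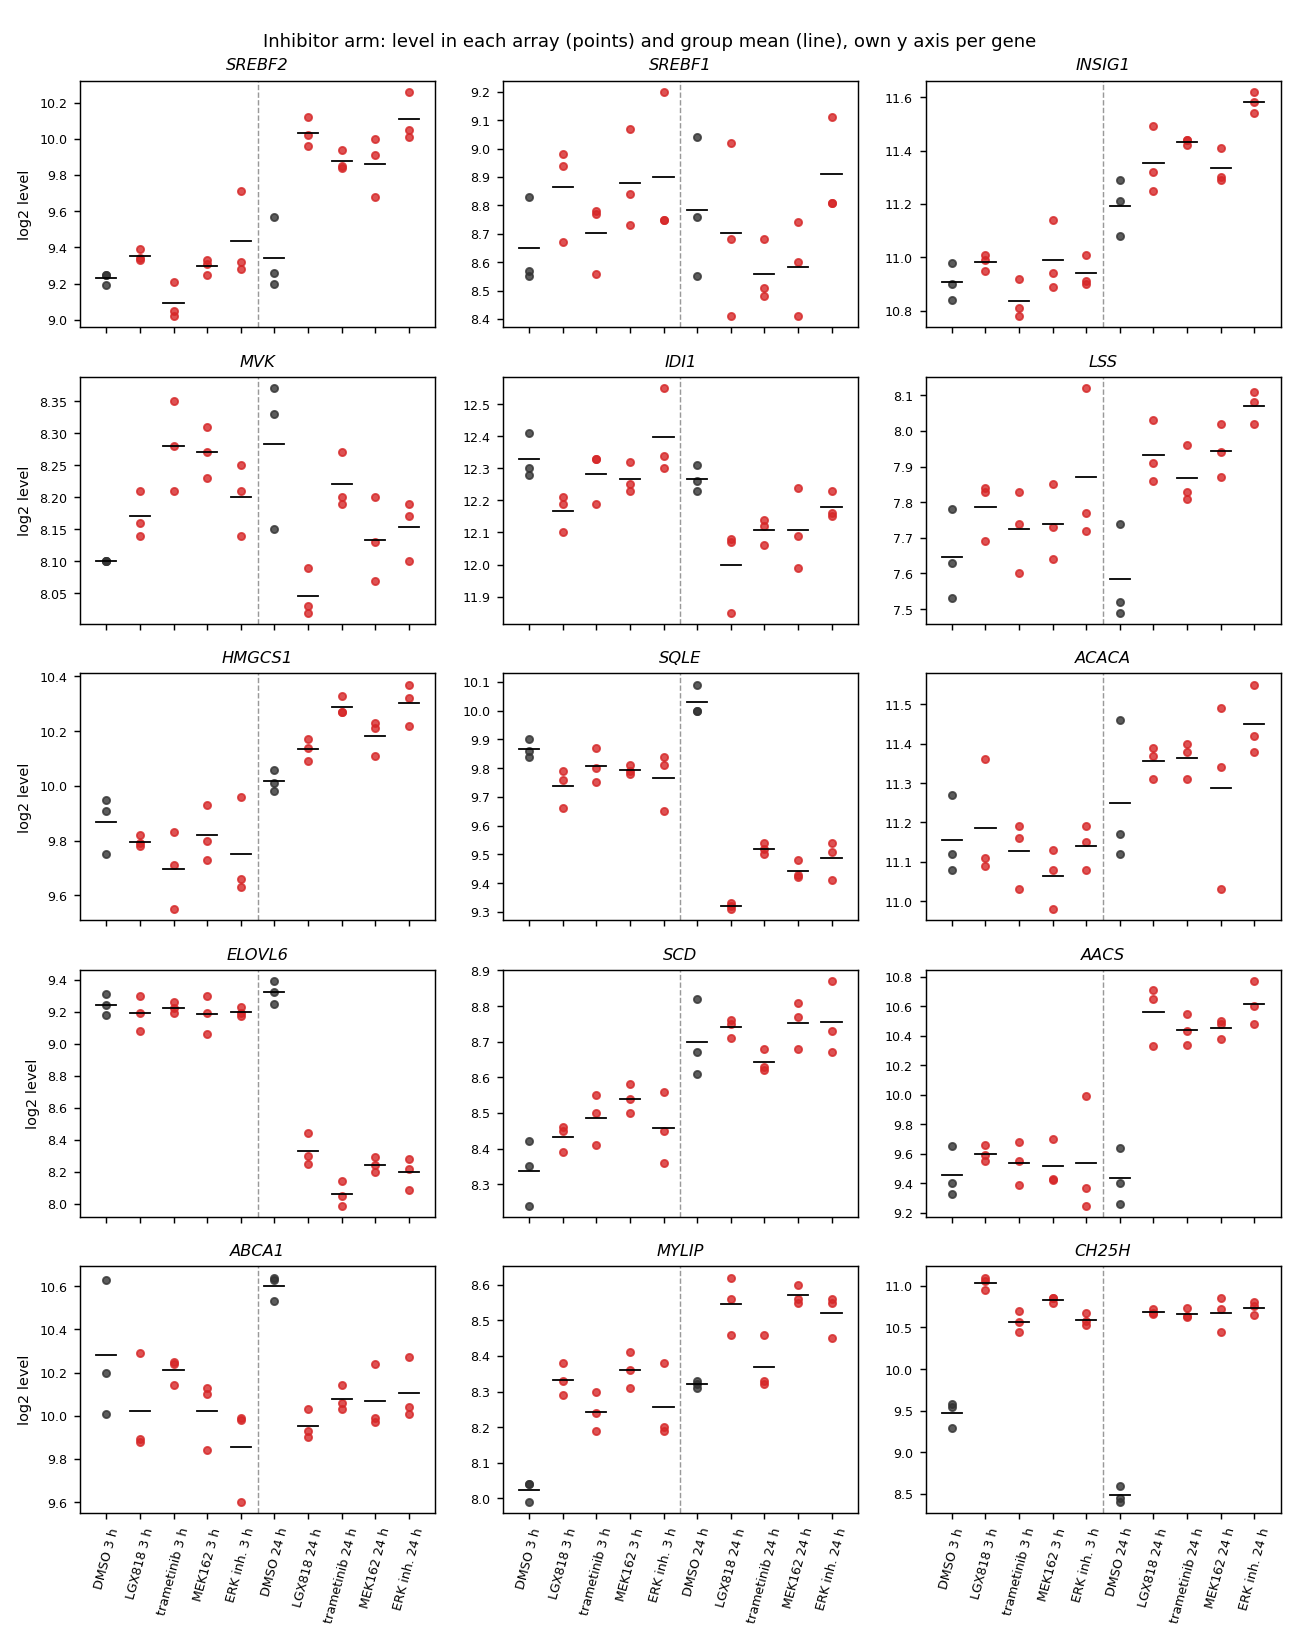
Log2 level in each array (points: grey DMSO, red inhibitor; lines: group means) of 15 genes in the 10 groups of the inhibitor arm, with 3 h left of the dashed line and 24 h right of it and a separate y axis for each gene. The AACS arrays at 24 h lie above all DMSO arrays and the ELOVL6 arrays below them, CH25H is already up at 3 h, and the DMSO points of CH25H drop between the times.

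In the sterol-sensing machinery, SREBF2, which encodes the SREBP that mainly drives cholesterol genes, read 9.2, 9.26 and 9.57 in DMSO at 24 h and 10.12, 10.02 and 9.96 with LGX818. It read 9.84, 9.94 and 9.85 with trametinib, 9.68, 9.91 and 10 with MEK162, and 10.26, 10.05 and 10.01 with the ERK inhibitor. The lowest treated array lay above the highest DMSO array. The rises were 0.69, 0.53, 0.52 and 0.76 (SE 0.10, highest adjusted p = 6.4e-05).

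INSIG1, the sterol-dependent retainer of SCAP and itself an SREBP target, read 11.08, 11.21 and 11.29 in DMSO at 24 h and 11.49, 11.32 and 11.25 with LGX818. It read 11.44, 11.44 and 11.42 with trametinib, 11.30, 11.41 and 11.29 with MEK162, and 11.62, 11.58 and 11.54 with the ERK inhibitor. Its rises of 0.16 (adjusted p = 0.0358), 0.24 (0.00298) and 0.38 (1.92e-05) with LGX818, trametinib and the ERK inhibitor passed the test, and 0.14 with MEK162 did not (0.0688). The LGX818 and MEK162 arrays overlapped DMSO, and the LGX818 call was lost without LGX818 a (adjusted p = 0.246), DMSO a (0.211) or DMSO b (0.0549).

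SREBF1, which encodes the SREBPs that mainly drive fatty acid genes, read 8.55, 8.76 and 9.04 in DMSO at 24 h and 9.02, 8.68 and 8.41 with LGX818. It read 8.68, 8.48 and 8.51 with trametinib, 8.41, 8.74 and 8.60 with MEK162, and 9.11, 8.81 and 8.81 with the ERK inhibitor. All 4 groups overlapped DMSO, with differences of -0.08, -0.23, -0.20 and 0.13 (SE 0.15, lowest adjusted p = 0.184). SCAP, the escort of both SREBPs, lay between -0.19 and 0.15 and passed with no inhibitor.

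Along the route from acetyl-CoA to farnesyl diphosphate, 2 enzymes fell with all 4 inhibitors. ACAT2, the cytosolic thiolase that makes acetoacetyl-CoA, read 12.32, 12.15 and 12.15 in DMSO at 24 h and 11.34, 11.58 and 11.55 with LGX818. Its arrays read 11.72, 11.65 and 11.64 with trametinib, 11.70, 11.51 and 11.51 with MEK162, and 11.70, 11.67 and 11.65 with the ERK inhibitor, all below DMSO. It fell by 0.72, 0.54, 0.63 and 0.53 (SE 0.067, highest adjusted p = 1.17e-07). FDPS, which makes farnesyl diphosphate, fell by 0.32, 0.28, 0.32 and 0.29 (SE 0.067, highest adjusted p = 0.000678). IDI1, which isomerises the isoprenoid building block, read 12.31, 12.23 and 12.26 in DMSO and 11.85, 12.07 and 12.08 with LGX818. It read 12.14, 12.12 and 12.06 with trametinib, 12.09, 11.99 and 12.24 with MEK162, and 12.23, 12.16 and 12.15 with the ERK inhibitor. The LGX818, trametinib and ERK inhibitor arrays all lay at or below the lowest DMSO array, and a MEK162 array overlapped. IDI1 fell by 0.27 with LGX818 (adjusted p = 0.001), by 0.16 with trametinib (0.0381) and by 0.16 with MEK162 (0.0405), and it read -0.09 with the ERK inhibitor (0.269; SE 0.068).

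MVK, the kinase that phosphorylates mevalonate, read 8.37, 8.33 and 8.15 in DMSO at 24 h and 8.02, 8.09 and 8.03 with LGX818. It read 8.27, 8.19 and 8.2 with trametinib, 8.2, 8.07 and 8.13 with MEK162, and 8.10, 8.19 and 8.17 with the ERK inhibitor. Only the LGX818 arrays lay below every DMSO array. MVK fell by 0.24 with LGX818 (adjusted p = 0.0019) and by 0.15 with MEK162 (0.0422), and read -0.06 and -0.13 with the other inhibitors. PMVK, the next kinase, fell by 0.24 with the ERK inhibitor only (adjusted p = 0.0436), and lay between -0.12 and -0.22 with the others.

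HMGCS1 and MVD went the other way on the same route. HMGCS1, which makes HMG-CoA and is a classic SREBP target, read 9.98, 10.06 and 10.01 in DMSO at 24 h and 10.17, 10.09 and 10.14 with LGX818. It read 10.27, 10.27 and 10.33 with trametinib, 10.11, 10.23 and 10.21 with MEK162, and 10.22, 10.37 and 10.32 with the ERK inhibitor. No treated array overlapped DMSO. The differences of 0.28 with trametinib and 0.29 with the ERK inhibitor passed the test (adjusted p = 0.00316 and 0.00237), and those of 0.12 and 0.17 with LGX818 and MEK162 did not (0.178 and 0.0636). MVD, the decarboxylase that closes the mevalonate steps, rose by 0.25 with trametinib (adjusted p = 0.0312) and 0.24 with MEK162 (0.0366), and lay at 0.21 and 0.19 with the others.

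These small calls depended on single arrays. Leaving out 1 array ended the MVK call with MEK162 (MEK162 b or c, DMSO a or b; adjusted p from 0.0826 to 0.197) and the PMVK call (any ERK inhibitor array, DMSO a or b; 0.0505 to 0.193). It also ended the IDI1 and MVD calls with trametinib (trametinib b or c for both, DMSO a or c for IDI1, DMSO b or c for MVD; 0.0616 to 0.136) and with MEK162 (MEK162 a or b for IDI1, a or c for MVD, with the same DMSO arrays; 0.0697 to 0.229). Same-letter arrays deviated together for MEK162 at 24 h too, and with the replicate block and only these 2 groups in the fit the MVK call was lost (adjusted p = 0.13) and HMGCS1 passed (0.0279).

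On the way from squalene to cholesterol, SQLE, EBP and DHCR7 fell with all 4 inhibitors while LSS, TM7SF2 and MSMO1 rose with all 4. LSS and TM7SF2 could be tested because they were high in a treated group. Among genes with controls above the threshold, MSMO1 was thus the only one on this stretch that rose with all 4. SQLE, the squalene epoxidase and a rate-limiting step, read 10.09, 10 and 10 in DMSO at 24 h and 9.32, 9.31 and 9.33 with LGX818. It read 9.52, 9.5 and 9.54 with trametinib, 9.43, 9.42 and 9.48 with MEK162, and 9.41, 9.54 and 9.51 with the ERK inhibitor. Every treated array lay below every DMSO array, and the falls were 0.71, 0.51, 0.59 and 0.55 (SE 0.055, highest adjusted p = 6.12e-09).

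DHCR7, the reductase that makes cholesterol from its last precursor, fell by 0.43, 0.58, 0.49 and 0.45 (SE 0.065, highest adjusted p = 1.83e-06). Here DMSO itself rose by 0.49 between 3 h and 24 h, from a mean of 8.79 to 9.28, and the treated means at 24 h of 8.71 to 8.85 were near the 3 h vehicle level. EBP, a sterol isomerase, fell by 0.29, 0.35, 0.32 and 0.55 (SE 0.11, adjusted p = 0.0231, 0.00688, 0.0117 and 8.5e-05). Its call was lost without LGX818 a (adjusted p = 0.229) or DMSO a (0.137) for LGX818, without DMSO a (0.0554) for trametinib, and without MEK162 b (0.0819) or DMSO a (0.0829) for MEK162.

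LSS, the cyclase that forms lanosterol, read 7.49, 7.52 and 7.74 in DMSO at 24 h and 7.86, 8.03 and 7.91 with LGX818. It read 7.96, 7.83 and 7.81 with trametinib, 7.87, 8.02 and 7.94 with MEK162, and 8.11, 8.08 and 8.02 with the ERK inhibitor. The treated arrays all lay above DMSO, by 0.36, 0.28, 0.36 and 0.49 (SE 0.098, highest adjusted p = 0.0137). The trametinib call was lost without trametinib a (adjusted p = 0.0654), DMSO a (0.0669) or DMSO b (0.0534). TM7SF2, a sterol reductase, rose by 0.96, 0.72, 0.73 and 0.83 (SE 0.16, highest adjusted p = 0.000399) from a DMSO mean of 6.91, which lies below the threshold for testing. MSMO1 rose by 0.16, 0.20, 0.18 and 0.16 (SE 0.041, highest adjusted p = 0.00112).

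CYP51A1, the lanosterol demethylase, NSDHL, a sterol dehydrogenase, and SC5D, a sterol desaturase, passed with no inhibitor at 24 h, with values from -0.14 to 0.17. Of the 16 sterol synthesis genes, 3 were higher and 7 lower with LGX818, 5 and 6 with trametinib, 4 and 7 with MEK162, and 4 and 6 with the ERK inhibitor. LSS, TM7SF2 and MVD could be tested because they were high in a treated group, and without them 1 of 13 was higher and 7 lower with LGX818, 2 and 6 with trametinib, 1 and 7 with MEK162, and 2 and 6 with the ERK inhibitor. The median fold changes of the 16 were -0.18, -0.10, -0.10 and -0.074, beside 0.016, -0.0033, 0.00070 and 0.016 for all genes.

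**Figure D3:**
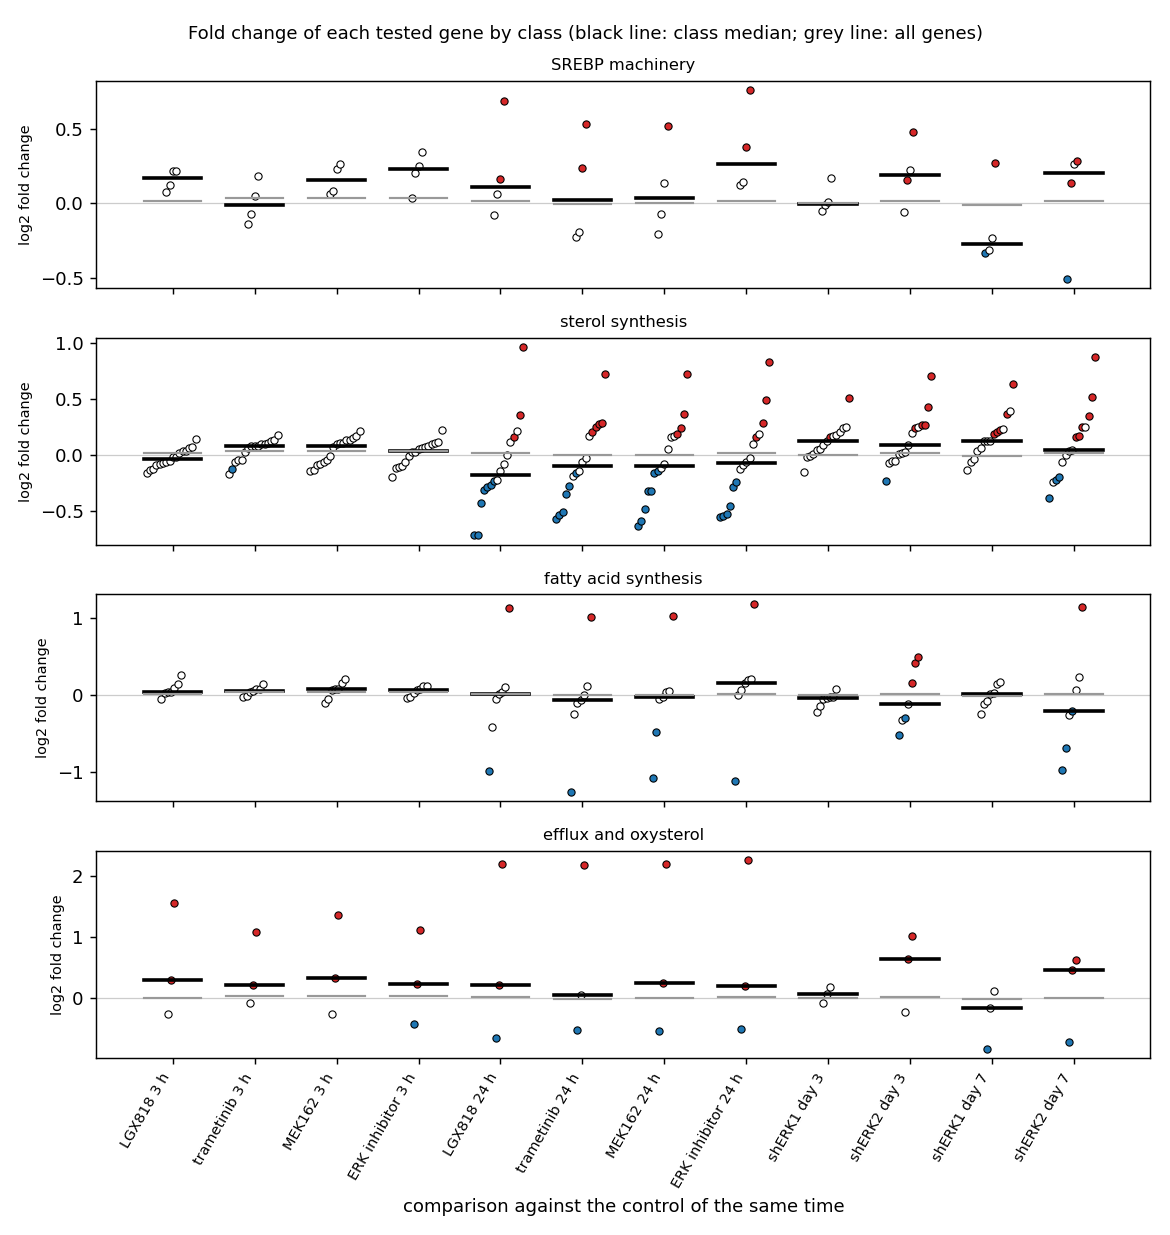
Log2 fold change of each tested gene (points; red higher, blue lower, white not passing the test) by class (panels, each with its own y axis) in the 12 comparisons. Black bars are class medians and grey bars the median of all genes tested; at 24 h the sterol synthesis points spread to both sides of 0 with the median below it.

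Among the fatty acid genes, ELOVL6 and AACS moved strongly and the rest little. ELOVL6, which lengthens saturated and monounsaturated fatty acids, read 9.25, 9.32 and 9.39 in DMSO at 24 h and 8.44, 8.25 and 8.30 with LGX818. It read 8.05, 7.99 and 8.14 with trametinib, 8.29, 8.24 and 8.2 with MEK162, and 8.22, 8.28 and 8.09 with the ERK inhibitor. The groups lay far apart, with falls of 0.99, 1.26, 1.08 and 1.12 (SE 0.073, highest adjusted p = 2.89e-12), or 1.98- to 2.39-fold. At 3 h ELOVL6 had lain between -0.06 and -0.02.

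AACS, the cytosolic enzyme that activates the ketone body acetoacetate for lipid synthesis, read 9.40, 9.26 and 9.64 in DMSO at 24 h and 10.65, 10.71 and 10.33 with LGX818. It read 10.55, 10.43 and 10.34 with trametinib, 10.38, 10.48 and 10.50 with MEK162, and 10.77, 10.60 and 10.48 with the ERK inhibitor. The lowest treated array stood well above the highest DMSO array. AACS rose by 1.12, 1.01, 1.02 and 1.18 (SE 0.14, highest adjusted p = 5.43e-07), or 2.01- to 2.27-fold.

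ACACA, the acetyl-CoA carboxylase that commits carbon to fatty acids, read 11.12, 11.17 and 11.46 in DMSO at 24 h and 11.39, 11.31 and 11.37 with LGX818. It read 11.31, 11.40 and 11.38 with trametinib, 11.03, 11.34 and 11.49 with MEK162, and 11.55, 11.38 and 11.42 with the ERK inhibitor. The groups overlapped and the differences of 0.04 to 0.20 did not pass the test (lowest adjusted p = 0.0667). ACLY, which makes cytosolic acetyl-CoA from citrate, fell by 0.48 with MEK162 (SE 0.20, adjusted p = 0.039) and read -0.42, -0.25 and 0.16 with LGX818, trametinib and the ERK inhibitor. That call was lost without MEK162 a (adjusted p = 0.186) or c (0.108), or DMSO b (0.0625) or c (0.225). SCD, the stearoyl-CoA desaturase, lay between -0.06 and 0.06, and FADS1 and FADS2, desaturases of polyunsaturated fatty acids, between -0.11 and 0.20, without passing.

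CH25H stood highest of all 30 genes in fold change at 24 h. It read 8.45, 8.40 and 8.59 in DMSO and 10.72, 10.67 and 10.66 with LGX818. It read 10.63, 10.64 and 10.73 with trametinib, 10.45, 10.72 and 10.86 with MEK162, and 10.81, 10.76 and 10.65 with the ERK inhibitor. The rises were 2.21, 2.19, 2.20 and 2.26 (SE 0.087, highest adjusted p = 6.46e-18), or 4.55- to 4.79-fold.

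ABCA1 fell at 24 h. It read 10.63, 10.53 and 10.64 in DMSO, 9.93, 9.90 and 10.03 with LGX818, and 10.06, 10.03 and 10.14 with trametinib. It read 10.24, 9.99 and 9.97 with MEK162 and 10.01, 10.04 and 10.27 with the ERK inhibitor. All treated arrays lay below all DMSO arrays, by 0.65, 0.52, 0.53 and 0.50 (SE 0.13, highest adjusted p = 0.00145).

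MYLIP read 8.32, 8.31 and 8.33 in DMSO at 24 h and 8.56, 8.46 and 8.62 with LGX818. It read 8.46, 8.33 and 8.32 with trametinib, 8.56, 8.55 and 8.60 with MEK162, and 8.56, 8.55 and 8.45 with the ERK inhibitor. It was higher by 0.22, 0.25 and 0.20 with LGX818, MEK162 and the ERK inhibitor (SE 0.064, adjusted p = 0.00302, 0.00143 and 0.00922), while trametinib arrays overlapped DMSO at 0.05 (0.519). ABCA1 and MYLIP, both known as LXR targets, were thus called in opposite directions with 3 of the 4 inhibitors.

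The size of an effect at 24 h was tested against its size at 3 h. With LGX818, 12 of 30 genes differed (5 more positive and 7 more negative at 24 h), where 52% of all genes did. Trametinib gave 15 (background 49.7%), MEK162 12 (50.9%) and the ERK inhibitor 14 (48.7%), and over the 27 genes with controls above the threshold the counts were 11, 14, 11 and 13. SREBF2, TM7SF2, MSMO1, AACS and CH25H were more positive at 24 h with all 4 inhibitors, and ACAT2, MVK, FDPS, SQLE, DHCR7 and ELOVL6 more negative. Of these, the MVK difference was lost in 5 of 12 fits that left out an array with trametinib and in 9 of 12 with the ERK inhibitor (highest adjusted p = 0.0924 and 0.116), and that of TM7SF2 in 1 of 12 with trametinib and 3 of 12 with MEK162 (0.0569 and 0.0754). Without array c of the ERK inhibitor at 3 h, its difference for PMVK (-0.36, adjusted p = 0.0436) and LSS (0.39, 0.0134) passed as well. The 2 effects of an inhibitor draw on different DMSO arrays, so movement in the vehicle enters this difference.

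In DMSO alone, 8 of the 30 genes were higher and 1 lower at 24 h than at 3 h, where 31.4% of all genes tested differed. The share of these genes that changed, 9 of 30, was not above that. Over the 27 genes with controls above the threshold the counts were the same. The share of all genes is not split by direction here, so the 8 and 1 are not read as a trait of the list. The sterol genes INSIG1, ACAT2, MVK, SQLE, MSMO1 and DHCR7 rose by 0.16 to 0.49, SCD by 0.36 (SE 0.070, adjusted p = 0.000255) and MYLIP by 0.30. CH25H fell by 0.99 (SE 0.087, adjusted p = 2.13e-09). With LGX818, trametinib, MEK162 and the ERK inhibitor the mean CH25H level was 11.04, 10.57, 10.84 and 10.59 at 3 h and 10.69, 10.67, 10.68 and 10.74 at 24 h, so the larger fold change at 24 h went with the lower vehicle level. The ACAT2, MVK and SQLE calls in DMSO were each lost when an array was left out, DMSO 24 h a among them for each (adjusted p = 0.121, 0.173 and 0.116).

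**Figure D4:**
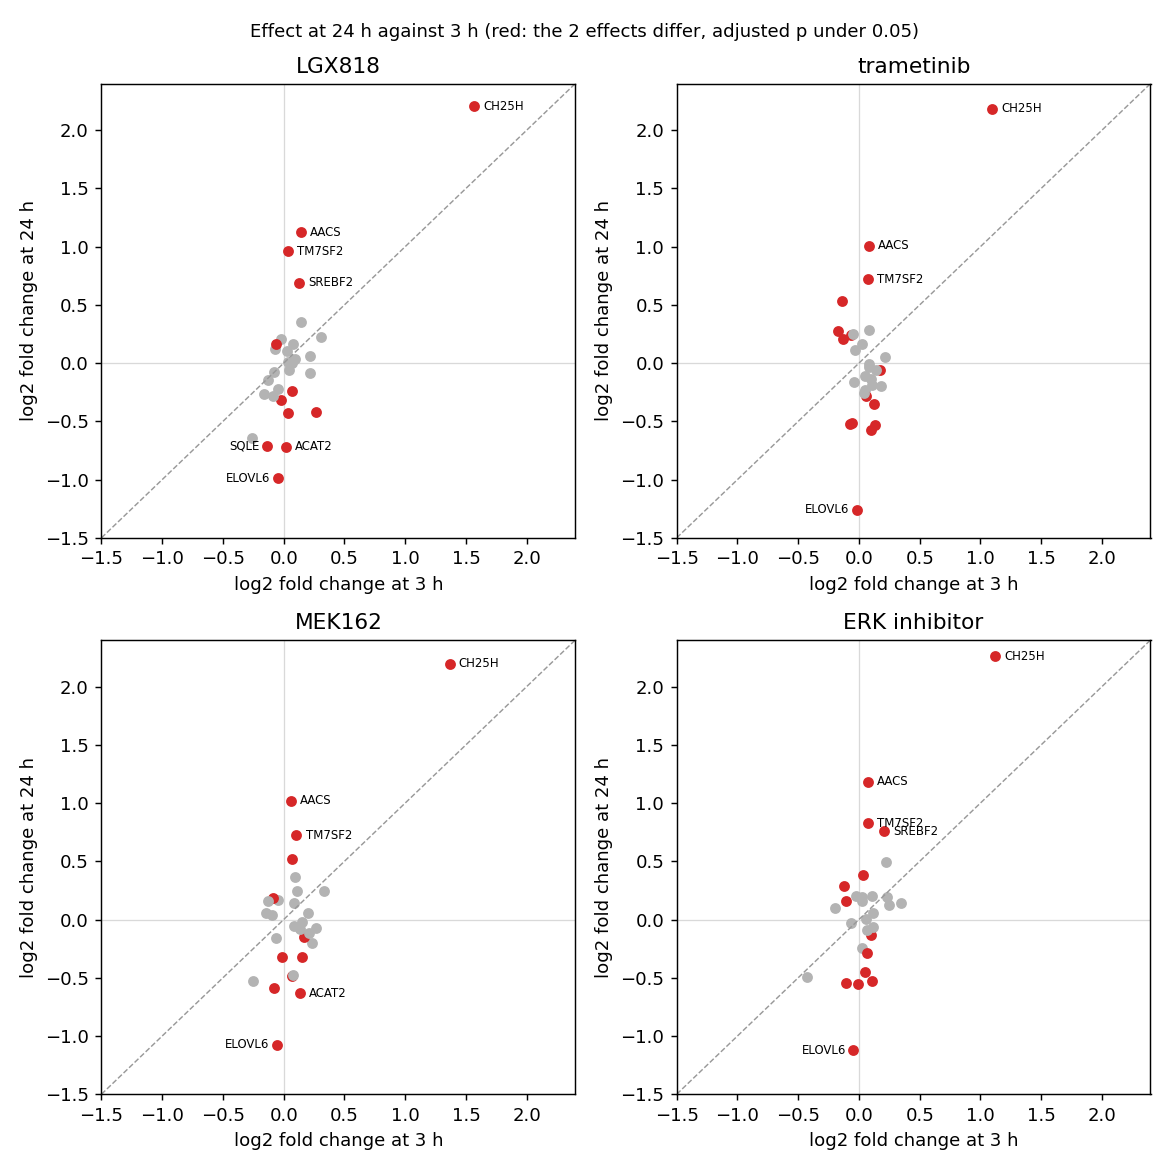
Log2 fold change against DMSO at 24 h (y axis) against that at 3 h (x axis) for the 30 tested genes, a panel for each inhibitor. Red points differ between the times at an adjusted p under 0.05 and are named where an effect exceeds 0.6; nearly all points lie close to 0 on the x axis and spread along the y axis, and CH25H lies above the dashed line of equal effects in each panel.

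The counts of the wider lipid lists at 24 h stand beside 69.2%, 64.5%, 67.2% and 65.2% of all genes tested that changed with LGX818, trametinib, MEK162 and the ERK inhibitor. Of 23 genes of fatty acid uptake, oxidation and storage tested (27 in the table of 30 listed), 15 were higher and 4 lower with LGX818, 9 and 6 with trametinib, 12 and 5 with MEK162, and 13 and 5 with the ERK inhibitor, with medians of 0.39, 0.14, 0.26 and 0.22. CD36, a fatty acid transporter, rose by 3.88, 3.83, 3.99 and 3.75, and PPARGC1A, a coactivator of oxidative metabolism, by 1.15, 0.64, 1.0 and 0.66. FABP7, a fatty acid binding protein, fell, with log2 fold changes of -3.06, -2.33, -2.68 and -2.12, as did MGLL, the monoacylglycerol lipase, at -2.89, -1.70, -2.33 and -1.54 (highest adjusted p of these genes 1.24e-07). CD36 and PPARGC1A were already higher at 3 h, by 0.79, 0.67, 0.78 and 0.62 and by 1.5, 1.47, 1.49 and 1.27 (highest adjusted p = 6.69e-05).

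Of the other genes of SREBP control and cholesterol handling, 24 were tested (26 in the table of 34 listed). At 24 h, 7 were higher and 7 lower with LGX818, 7 and 6 with trametinib, 7 and 9 with MEK162, and 7 and 6 with the ERK inhibitor. LPIN1, a phosphatidate phosphatase and SREBP target that is also on the fatty acid list, rose by 1.68, 1.37, 1.56 and 1.31, and CYP27A1, the sterol 27-hydroxylase, by 0.82, 0.46, 0.64 and 0.72. SOAT1, which esterifies cholesterol for storage, fell by 1.55, 1.05, 1.39 and 1.19, and TMEM97, an SREBP target that binds the NPC1 transporter, by 1.14, 0.89, 1.05 and 0.97 (highest adjusted p of these genes 0.00198). At 3 h, LPIN1 was higher by 0.47, 0.29, 0.52 and 0.37, and RNF145, a sterol-responsive ubiquitin ligase, lower by 0.40, 0.43, 0.47 and 0.32 (highest adjusted p = 0.000331).

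Of the other fatty acid synthesis, elongation and activation genes, 21 were tested (28 in the table of 34 listed), and at 24 h 10 were higher and 5 lower with LGX818, 9 and 4 with trametinib, 8 and 6 with MEK162, and 10 and 3 with the ERK inhibitor. ACACB, the mitochondrial acetyl-CoA carboxylase, rose by 1.37, 1.05, 1.35 and 0.88. ELOVL2, which lengthens polyunsaturated fatty acids, fell by 2.20, 1.56, 1.91 and 1.34 (highest adjusted p of both 2.26e-08). MLX, the partner of the carbohydrate-response factor, fell by 0.41, 0.42, 0.50 and 0.45 (highest adjusted p = 7.76e-07). ACSS2, an acetyl-CoA synthetase, fell by 0.45, 0.39 and 0.33 with trametinib, MEK162 and the ERK inhibitor and read -0.20 with LGX818 (adjusted p = 0.0674).

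Of 8 further LXR targets and receptors tested (10 in the table of 13 listed), 5 were higher and 1 lower with LGX818, 3 and 2 with trametinib, 5 and 2 with MEK162, and 5 and 2 with the ERK inhibitor at 24 h. PLIN2, a lipid droplet coat protein also on the uptake list, rose by 0.49, 0.30, 0.50 and 0.35 (highest adjusted p = 0.0195). SMPDL3A, a phosphodiesterase, fell by 0.59, 0.43, 0.49 and 0.35 (highest adjusted p = 5.38e-05). ABCA2 rose by 0.56, 0.28, 0.40 and 0.34 (highest adjusted p = 0.0139), and NR1H3, which encodes LXR alpha, fell by 0.36, 0.22 and 0.32 with trametinib, MEK162 and the ERK inhibitor and read -0.13 with LGX818 (0.182).

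In the shRNA arm, MAPK3, which encodes ERK1 and is the target of shERK1, checked the labels first. It lay between 7.98 and 8.49 in the 6 shERK1 arrays and between 9.48 and 9.78 in the 6 NT arrays, lower by 1.54 at day 3 (SE 0.12, adjusted p = 3.24e-08) and 1.40 at day 7 (7.45e-08). With shERK2 it read -0.02 and 0.05 (adjusted p = 0.939 and 0.728). The level of the target of shERK2 is not analysed here.

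With shERK2, SREBF2, INSIG1, LSS, IDI1, MVK, AACS, MYLIP and CH25H were higher at both days, and ELOVL6 and ACACA were lower. LSS was tested in this arm only through its shERK2 groups. At day 3, 12 of 29 genes were higher and 3 lower against NT shRNA, where 33% of all genes tested had changed (17.5% higher and 15.5% lower), and the median of the 29 was 0.15 beside 0.017 for all genes. At day 7, 11 were higher and 8 lower (background 64.2%, 32.8% higher and 31.5% lower), with medians of 0.069 and 0.013. With shERK1, 2 were higher and none lower at day 3 (background 4.66%, 1.97% higher and 2.69% lower), and 6 were higher and 2 lower at day 7 (background 17.9%, 8.74% higher and 9.16% lower). Over the 27 genes with controls above the threshold, 11 were higher and 3 lower with shERK2 at day 3, and 9 and 8 at day 7. With shERK1 these counts were 2 and 0 at day 3, and 6 and 2 at day 7. Of the 15 sterol synthesis genes tested, 5 were higher and 1 lower with shERK2 at day 3 and 6 and 3 at day 7 (medians 0.086 and 0.044), and 3 were higher at both days. Over the 13 of them with controls above the threshold the counts were 4 and 1 at day 3 and 4 and 3 at day 7. LSS is 1 of the 3 higher at both days. No share of all genes is set beside the counts of genes called on both days, so they are not read as a trait of the list. Of the ERK output genes DUSP6, SPRY4, MYC and CCND1, 2 of 4 were lower with shERK2 on each day. Their list medians were -0.24 at day 3 and -0.44 at day 7. With shERK1 the medians were -0.15 and -0.14, with none lower at day 3 and 1 at day 7. Of the 6 melanocyte markers, 2 were higher and 1 lower with shERK2 at day 3, and 2 higher and 4 lower at day 7 (median -0.65), and CD68 was higher by 0.83 at day 7. The part of these markers in the lipid gene changes was not tested. Both targeting shRNAs are set against the same NT arrays.

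**Figure D5:**
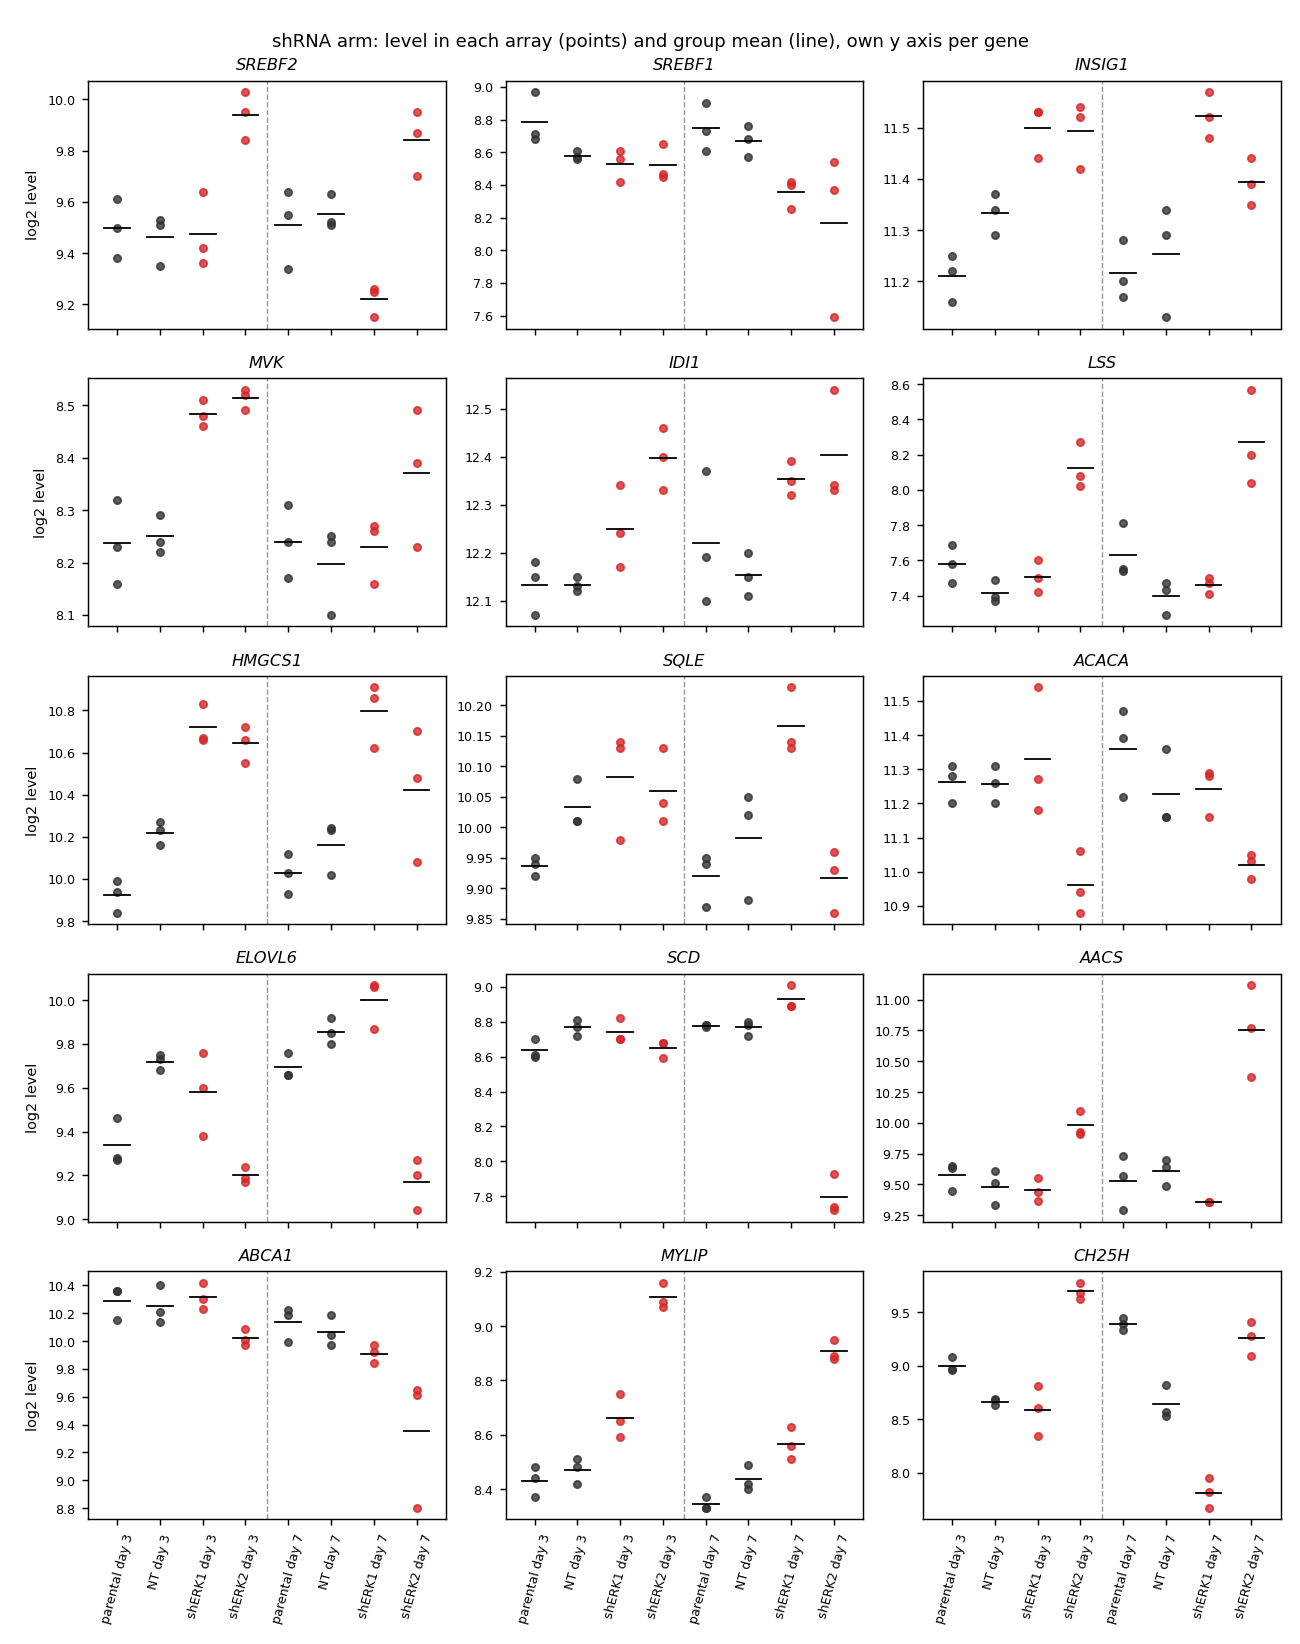
Log2 level in each array (points: grey parental and NT shRNA, red targeting shRNA; lines: group means) of 15 genes in the 8 groups of the shRNA arm, with day 3 left of the dashed line and day 7 right of it and a separate y axis for each gene. The shERK2 arrays of AACS, LSS and MYLIP lie above all others of their day, the SCD arrays of shERK2 drop at day 7, and the CH25H arrays of NT shRNA lie below those of parental cells.

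SREBF2 read 9.35, 9.53 and 9.51 with NT shRNA and 9.95, 10.03 and 9.84 with shERK2 at day 3, and 9.63, 9.52 and 9.51 with NT and 9.95, 9.70 and 9.87 with shERK2 at day 7. The shERK1 arrays read 9.42, 9.64 and 9.36 at day 3 and 9.26, 9.15 and 9.25 at day 7. The shERK2 arrays lay above NT at both days, and the shERK1 arrays below NT at day 7. SREBF2 rose by 0.48 and 0.29 with shERK2 (SE 0.090, adjusted p = 0.000278 and 0.00894) and fell by 0.34 with shERK1 at day 7 (0.012). The shERK2 call at day 7 was lost with only the groups compared in the fit, with or without the replicate block (highest adjusted p = 0.07). The shERK1 call was lost without shERK1 b (adjusted p = 0.0655) or NT a (0.0619). The difference between the shRNAs was 0.47 at day 3 and 0.62 at day 7 (adjusted p = 0.000307 and 3.43e-06).

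INSIG1 read 11.29, 11.34 and 11.37 with NT and 11.42, 11.54 and 11.52 with shERK2 at day 3, and 11.34, 11.29 and 11.13 with NT and 11.35, 11.39 and 11.44 with shERK2 at day 7. Its shERK1 levels were 11.53, 11.44 and 11.53 at day 3 and 11.48, 11.52 and 11.57 at day 7. No targeting array overlapped NT, by a narrow margin with shERK2 at day 7. It was higher by 0.16 and 0.14 with shERK2 (SE 0.055, adjusted p = 0.0293 and 0.0307) and by 0.27 with shERK1 at day 7 (0.0014), and read 0.17 with shERK1 at day 3 (0.0914). The shERK2 calls were lost without shERK2 b or c or NT a or b at day 3 (adjusted p from 0.0598 to 0.113) and without shERK2 c or NT c at day 7 (0.103 and 0.223). The day 7 call was also lost with median centring or with only the groups compared in the fit (highest adjusted p = 0.277).

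SREBF1 read 8.57, 8.61 and 8.56 with NT, 8.65, 8.45 and 8.47 with shERK2 and 8.61, 8.56 and 8.42 with shERK1 at day 3. At day 7 it read 8.76, 8.57 and 8.68 with NT, 8.54, 7.59 and 8.37 with shERK2 and 8.40, 8.25 and 8.42 with shERK1. At day 7 both targeting shRNAs lay below NT, and array b of shERK2 lay far below the rest. The fall with shERK2 was 0.51 (SE 0.16, adjusted p = 0.0075), and it was 0.22 without array b (0.0626) and 0.69 without array a (0.000251). Its call was also lost with only the groups compared in the fit, with or without the replicate block (highest adjusted p = 0.128). SCAP read 0.22 and 0.27 with shERK2 and -0.01 and -0.23 with shERK1, without passing, and the 0.27 was 0.021 without array a.

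Several enzymes of sterol synthesis were higher with shERK2 than with NT shRNA, which was not particular to shERK2. With shERK1 the class medians against NT were 0.12 at day 3 and 0.13 at day 7, beside 0.086 and 0.044 with shERK2. Set directly against shERK1, 1 of 15 was higher and 2 lower with shERK2 at day 3 (median -0.024). At day 7, 2 were higher and 5 lower (median -0.062). LSS read 7.49, 7.37 and 7.39 with NT and 8.27, 8.02 and 8.08 with shERK2 at day 3, and 7.43, 7.29 and 7.47 with NT and 8.57, 8.04 and 8.2 with shERK2 at day 7. Under shERK1 the levels were 7.5, 7.60 and 7.42 at day 3 and 7.5, 7.47 and 7.41 at day 7, within or next to the NT range. The rise with shERK2 was 0.71 and 0.87 (SE 0.11, adjusted p = 4.4e-05 and 8.82e-07), and 0.72 at day 7 without array a (2.17e-06). In this arm only the 2 shERK2 groups had LSS means over the threshold for testing (8.12 and 8.27, with NT at 7.42 and 7.4). LSS was thus tested here because it was high in the groups compared.

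IDI1 read 12.13, 12.15 and 12.12 with NT and 12.46, 12.33 and 12.40 with shERK2 at day 3, and 12.15, 12.11 and 12.20 with NT and 12.54, 12.33 and 12.34 with shERK2 at day 7. With shERK1 it read 12.34, 12.24 and 12.17 at day 3 and 12.32, 12.35 and 12.39 at day 7. All targeting arrays lay above NT of their day. It rose by 0.26 and 0.25 with shERK2 (SE 0.064, adjusted p = 0.00275 and 0.00201) and by 0.20 with shERK1 at day 7 (0.032), a call lost without shERK1 b or c or NT a or b (0.0846 to 0.113).

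MVK read 8.24, 8.22 and 8.29 with NT and 8.52, 8.49 and 8.53 with shERK2 at day 3, and 8.10, 8.24 and 8.25 with NT and 8.49, 8.39 and 8.23 with shERK2 at day 7. The shERK1 arrays read 8.51, 8.48 and 8.46 at day 3 and 8.27, 8.26 and 8.16 at day 7. The day 3 arrays of both shRNAs lay above NT, and the day 7 arrays overlapped it. MVK rose by 0.27 and 0.17 with shERK2 (SE 0.071, adjusted p = 0.00582 and 0.0394), and the day 7 call was lost without shERK2 a (0.186) or b (0.0768) or NT a (0.173). Of 16 alternative fits, 9 lost the day 7 call (highest adjusted p = 0.526) and 1 the day 3 call (0.0506). With shERK1 the day 3 difference of 0.24 did not pass (0.059).

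HMGCS1 read 10.16, 10.23 and 10.27 with NT, 10.66, 10.83 and 10.67 with shERK1 and 10.55, 10.66 and 10.72 with shERK2 at day 3. At day 7 it read 10.23, 10.24 and 10.02 with NT, 10.62, 10.91 and 10.86 with shERK1 and 10.08, 10.70 and 10.48 with shERK2. The shERK1 arrays lay above NT at both days, and array a of shERK2 at day 7 fell within the NT range. HMGCS1 rose by 0.50 and 0.63 with shERK1 (SE 0.11, adjusted p = 0.00947 and 0.000376) and by 0.43 with shERK2 at day 3 (0.00551). At day 7 shERK2 gave 0.25 (0.0534), and 0.42 without array a (0.000345). The shERK1 day 3 call was lost without shERK1 b (0.0557) or NT a (0.0507).

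ACAT2 read 11.97, 11.96 and 12 with NT and 12.26, 12.16 and 12.24 with shERK2 at day 3, and 12.11, 12.02 and 12.04 with NT and 11.68, 11.91 and 11.91 with shERK2 at day 7. The shERK1 arrays read 12.24, 12.16 and 12.06 at day 3 and 12.20, 12.15 and 12.18 at day 7. The shERK2 arrays lay above NT at day 3 and below it at day 7. ACAT2 rose by 0.24 at day 3 (SE 0.062, adjusted p = 0.00431) and fell by 0.22 at day 7 (0.00391), or by 0.14 without array a (0.0303). The day 7 call was lost with only the groups compared in the fit, with or without the replicate block (highest adjusted p = 0.104).

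Of the other sterol enzymes, none was called the same way with shERK2 on both days. With shERK2 at day 3 DHCR7 fell by 0.24 (adjusted p = 0.0316). At day 7 MVD rose by 0.52 (6.78e-05), NSDHL by 0.35 (0.00638) and MSMO1 by 0.16 (0.000509), and CYP51A1 fell by 0.20 (0.0215) and EBP by 0.39 (0.000175). With shERK1 MSMO1 rose by 0.16 at day 3 (0.00957) and 0.23 at day 7 (0.000135), and at day 7 SQLE rose by 0.18 (0.035) and EBP by 0.36 (0.00219). PMVK, FDPS and SC5D passed with neither shRNA, and TM7SF2, with group means of 6.78 to 7.65, was not tested here.

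Without array a of shERK2 at day 7, CYP51A1 and NSDHL missed the threshold (-0.18 and 0.18, adjusted p = 0.051 and 0.0545) and FADS1 passed it (0.13, 0.0226). Without another array, DHCR7 (shERK2 b or c, NT a or c; adjusted p from 0.0772 to 0.128) and CYP51A1 (shERK2 c, NT a; 0.0887 and 0.0663) lost their shERK2 calls, and SQLE (shERK1 b or c, NT b or c; 0.0513 to 0.198) and MSMO1 at day 3 (shERK1 b, NT a; 0.0506 and 0.0544) their shERK1 calls. With only the groups compared in the fit, NSDHL lost its day 7 shERK2 call, with or without the replicate block (highest adjusted p = 0.122). With that block and only those groups, MSMO1 lost its day 7 shERK2 call (0.0819).

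ELOVL6 read 9.68, 9.75 and 9.73 with NT and 9.19, 9.24 and 9.17 with shERK2 at day 3, and 9.80, 9.92 and 9.85 with NT and 9.27, 9.2 and 9.04 with shERK2 at day 7. Its shERK1 levels were 9.60, 9.38 and 9.76 at day 3 and 9.87, 10.06 and 10.07 at day 7. The shERK2 arrays lay below all NT arrays, and the shERK1 arrays overlapped them. It fell by 0.52 and 0.69 with shERK2 (SE 0.084, adjusted p = 5.43e-05 and 4.3e-07). Parental cells read 9.27, 9.28 and 9.46 at day 3 and 9.66, 9.76 and 9.66 at day 7, so the day 3 shERK2 arrays were close to parental cells, from which NT shRNA differed by 0.38 (0.00336).

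ACACA read 11.20, 11.26 and 11.31 with NT and 10.94, 11.06 and 10.88 with shERK2 at day 3, and 11.16, 11.36 and 11.16 with NT and 11.05, 10.98 and 11.03 with shERK2 at day 7. Under shERK1 the levels were 11.18, 11.54 and 11.27 at day 3 and 11.16, 11.29 and 11.28 at day 7, around the NT values. It fell by 0.30 and 0.21 with shERK2 (SE 0.082, adjusted p = 0.00765 and 0.0307), and the day 7 call was lost without shERK2 b (0.0683) or c (0.0549) or NT b (0.172). That call was also lost with only the groups compared in the fit, with or without the replicate block.

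AACS read 9.51, 9.61 and 9.33 with NT and 10.10, 9.91 and 9.93 with shERK2 at day 3, and 9.64, 9.49 and 9.70 with NT and 11.12, 10.37 and 10.77 with shERK2 at day 7. With shERK1 it read 9.55, 9.44 and 9.37 at day 3 and 9.36 in each array at day 7. The shERK2 arrays lay above all NT arrays, with array a highest at day 7. AACS rose by 0.49 and 1.14 (SE 0.13, adjusted p = 0.00649 and 1.94e-07), and by 0.96 at day 7 without array a (2.4e-07). Its shERK2 effect was larger at day 7 than at day 3 by 0.65 (SE 0.19, adjusted p = 0.0145). That difference missed the threshold with only the groups compared in the fit (0.0594).

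SCD showed the largest fall of the 29 genes with shERK2 at day 7. It read 8.81, 8.72 and 8.77 with NT and 8.68, 8.59 and 8.68 with shERK2 at day 3, and 8.80, 8.78 and 8.72 with NT and 7.72, 7.74 and 7.93 with shERK2 at day 7. The day 7 groups lay far apart, by 0.97 (SE 0.065, adjusted p = 3.28e-11), and the day 3 difference of -0.12 did not pass (0.174). With shERK1 SCD read -0.03 and 0.17, and with the inhibitors at 24 h it had not passed. FADS1 and FADS2 rose by 0.15 and 0.42 with shERK2 at day 3 (adjusted p = 0.0268 and 0.00895). The FADS1 call was lost without any day 3 array of NT or without shERK2 a or c (0.0518 to 0.0771), and the FADS2 call without shERK2 a (0.068). NT cells themselves read lower than parental cells for FADS2, by 0.50 at day 3 and 0.39 at day 7. The day 3 FADS2 mean with shERK2 was 8.68, below the parental mean of 8.76, so the direction of that value depends on the control. ACLY read between -0.32 and -0.08 without passing.

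MYLIP read 8.42, 8.48 and 8.51 with NT and 9.09, 9.07 and 9.16 with shERK2 at day 3, and 8.49, 8.40 and 8.42 with NT and 8.89, 8.88 and 8.95 with shERK2 at day 7. The shERK1 arrays read 8.75, 8.59 and 8.65 at day 3 and 8.63, 8.51 and 8.56 at day 7. Both targeting shRNAs lay above NT, and shERK2 above shERK1. The rise with shERK2 was 0.64 and 0.47 (SE 0.060, adjusted p = 2.52e-08 and 6.77e-07), and the shERK1 differences of 0.19 and 0.13 did not pass (0.0674 and 0.15). ABCA1 read 10.21, 10.14 and 10.40 with NT, 9.97, 10.09 and 10.01 with shERK2 and 10.23, 10.30 and 10.42 with shERK1 at day 3. At day 7 it read 9.97, 10.19 and 10.04 with NT, 8.80, 9.61 and 9.65 with shERK2 and 9.97, 9.84 and 9.92 with shERK1. All shERK2 arrays lay below NT, array a by far the most at day 7. ABCA1 fell by 0.72 at day 7 (SE 0.15, adjusted p = 0.000233), and by 0.44 without array a (0.000183).

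CH25H read 8.68, 8.63 and 8.69 with NT, 9.78, 9.63 and 9.68 with shERK2 and 8.34, 8.81 and 8.61 with shERK1 at day 3. At day 7 it read 8.53, 8.82 and 8.57 with NT, 9.41, 9.28 and 9.09 with shERK2 and 7.82, 7.95 and 7.67 with shERK1. Parental cells read 8.97, 8.96 and 9.08 at day 3 and 9.34, 9.45 and 9.39 at day 7. The shERK2 arrays lay above NT at both days but around or below the parental arrays at day 7, and the shERK1 arrays lay below both controls at day 7. CH25H rose by 1.03 and 0.62 with shERK2 (SE 0.10, adjusted p = 9.03e-08 and 2.49e-05) and fell by 0.82 with shERK1 at day 7 (8.25e-06). NT differed from parental cells by -0.34 at day 3 (0.0372) and -0.76 at day 7 (1.41e-05), so the direction of the day 7 shERK2 value depends on the control.

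Set directly against shERK1, shERK2 differed in 11 of 29 genes at day 3 (7 higher and 4 lower, background 35.5%) and in 18 at day 7 (8 higher and 10 lower, background 68.7%), or in 10 and 16 of the 27 with controls above the threshold. At day 7 AACS was higher by 1.40, CH25H by 1.45 and LSS by 0.81, and SCD was lower by 1.14, ELOVL6 by 0.83 and EBP by 0.75 (highest adjusted p = 1.92e-06). Of these, LSS could be tested only because its shERK2 groups lay over the threshold. HMGCS1 was lower with shERK2 than with shERK1 at day 7, by 0.38 (SE 0.11, adjusted p = 0.00507), and by 0.21 without array a of shERK2 (0.0456). Without that array SCAP, INSIG1 and FADS2 missed the threshold (0.25, -0.11 and 0.21, against 0.50, -0.13 and 0.36 with it), SREBF1 and FDPS passed as lower (-0.38 and -0.18), and SC5D and ABCA1 went from -0.63 and -0.56 to -0.30 and -0.28. The effect of shERK2 differed between the days in 5 genes (1 higher and 4 lower at day 7, background 23.9%) and that of shERK1 in 1, CH25H (background 0.522%). Over the 27 genes with controls above the threshold the counts of these day differences were the same. The CH25H difference was lost in 9 of 12 fits that left out an array with shERK2 and 7 of 12 with shERK1, and that of EBP in 8 of 12 with shERK2 (highest adjusted p = 0.148, 0.0794 and 0.117).

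The control comparisons of the shRNA arm called 3 or fewer of these genes each. NT differed from parental cells in 3 of 29 genes at day 3 (1 higher and 2 lower, background 11.9%) and in 3 at day 7 (all lower, background 16.4%), and these were ELOVL6, FADS1, FADS2 and CH25H. The sterol synthesis genes lay between -0.25 (MVD at day 7) and 0.29 (HMGCS1 at day 3) without passing. The CH25H call at day 3 was lost without any of the 6 arrays (adjusted p from 0.07 to 0.142), the FADS1 call at day 7 without NT a or c or parental c (0.056 to 0.0781), and the FADS2 call at day 7 without NT b or c or parental c (0.0539 to 0.151). Between day 7 and day 3, NT cells differed in none of the 29 by limma (background 5.5%), also at an unadjusted p under 0.05, with 2 passing where only the groups compared were fitted and 7 with array weights, and parental cells in 3 (ELOVL6, FADS1 and CH25H, all higher at day 7, background 6.94%). The calls between parental days were each lost when single arrays were left out, parental day 3 a among them for all 3 (adjusted p = 0.0581, 0.0657 and 0.0847).

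In the wider lists, whose counts with shERK2 at day 7 stand beside 64.2% of all genes changed, 7 were higher and 8 lower of 22 tested genes of fatty acid uptake, oxidation and storage. CD36 rose by 1.98 at day 3 and 3.67 at day 7, FABP7 fell (-0.99 and -2.30, highest adjusted p of both 2.2e-10), and PPARGC1A fell by 1.34 at day 7 (3.84e-12), where the inhibitors had raised it. Of 24 other genes of SREBP control and cholesterol handling, 5 were higher and 10 lower at day 7. Of these, SOAT1 fell by 0.46 and 0.96 (highest adjusted p = 0.0037), and GGPS1, which makes geranylgeranyl diphosphate, rose by 0.24 and 0.41 (highest adjusted p = 0.000278).

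Of 21 other fatty acid synthesis genes, 4 were higher and 6 lower with shERK2 at day 7, and ELOVL2 fell by 0.59 at day 3 and 1.31 at day 7 (highest adjusted p = 3.7e-06). Of 7 LXR targets and receptors, 1 was higher and 5 lower, with APOE, a lipid carrier, falling by 0.46 and 1.29 and NR1H3 by 0.62 and 0.59 (highest adjusted p = 0.00206). With shERK1 at day 7, 6, 5, 4 and 1 genes changed in the order uptake, cholesterol handling, fatty acid synthesis and LXR (17.9% of all genes), with ELOVL4, which makes very long chain fatty acids, rising by 0.80 (adjusted p = 7.11e-07). The replication and mitosis genes named above fell with shERK2 at day 7 in 4 of 4 cases (median -0.46), where at day 3 the median had been -0.020.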

How the data were processed

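Expression was deposited as 1 log2 value per probe set and array. The authors computed these log2 values by RMA (affy), as the submitters' processing notes state without versions; neither the probe-set definition nor a genome build is given in the sources used here. RMA equalises the distribution of all arrays, so a shift shared by most genes would not be seen, and it has no detection calls. The number of arrays, 3 a group, limits the precision. Of 18989 rows, 62 control probe sets and 1052 rows outside the probe annotation were left out, and each remaining gene has 1 row.

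Genes with at least 1 group mean over 7.86 log2 were tested per arm with limma 3.58.1 in R 4.3.3 (1 mean a group, eBayes with an intensity trend, 20 and 16 residual degrees of freedom, Benjamini-Hochberg over all genes tested, threshold 0.05). For the LGX818 3 h comparison, data were simulated over 9703 genes. Of genes shifted by 0.5 log2, 85% were recovered, and 100% of those shifted by 1, with 7 of 192 calls false. For shERK1 at day 3 (9779 genes) the shares were 83% and 98%, with 8 of 189 calls false. The noise was drawn independently for each gene and array, with 100 genes shifted at each size. Shared deviations of same-letter arrays, outlying arrays and larger shares of changed genes were not simulated. These figures are therefore not error rates of the tests above.

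Every listed gene is named. Per-array values are given for genes changed in at least 6 of the 8 inhibitor comparisons or in both shERK2 comparisons, and for SREBF1, SREBF2, INSIG1, ABCA1 and CH25H; those of HMGCS1, SQLE and SCD were added after their values were seen. Of each wider list, the genes named come from the 2 largest rises and 2 largest falls among changed genes. The genes and lists were chosen with earlier results of these data known.

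Array letters were checked as pairs: same-letter deviations correlated over 0.1 in every pair in 3 of 19 comparisons of 2 groups (MEK162 at 3 h and 24 h and the ERK inhibitor at 3 h), so a replicate block was an alternative. Other alternatives were no filter and a stricter filter, no trend, array weights, median centring, repeated quantile normalisation, other sets of arrays in the fit and leaving out each array.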

Additional observations from a re-analysis of the deposited data

Results flagged for a closer look

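The effect of an inhibitor at 24 h was tested against its effect at 3 h, and that of an shRNA at day 7 against day 3, as differences of log2 fold changes in limma. The differences that passed the adjusted threshold were set apart because they show an effect that changed with time. Values are the later minus the earlier effect, and controls of both times enter each. In the order LGX818, trametinib, MEK162 and the ERK inhibitor, the effect differed for SREBF2 by 0.57, 0.67, 0.45 and 0.55, and for ACAT2 by -0.74, -0.67, -0.77 and -0.64. In the same order the effect differed for MVK by -0.30, -0.24, -0.32 and -0.23, and for FDPS by -0.30, -0.34, -0.31 and -0.35. It differed likewise for SQLE by -0.58, -0.45, -0.51 and -0.44, and for TM7SF2 by 0.93, 0.64, 0.62 and 0.75. In the same order the effect differed for MSMO1 by 0.23, 0.33, 0.27 and 0.27, and for DHCR7 by -0.47, -0.68, -0.56 and -0.50. It differed likewise for ELOVL6 by -0.94, -1.24, -1.02 and -1.07, and for AACS by 0.99, 0.93, 0.96 and 1.10. In the same order the effect differed for CH25H by 0.64, 1.09, 0.83 and 1.14. With some of the inhibitors the effect differed for ACLY by -0.68 with LGX818, for INSIG1 by 0.31 with trametinib and 0.35 with the ERK inhibitor, for HMGCS1 by 0.45 with trametinib and 0.41 with the ERK inhibitor, for EBP by -0.47 with trametinib, -0.47 with MEK162 and -0.55 with the ERK inhibitor, for ABCA1 by -0.45 with trametinib. With shERK2 the effect differed between the days for ACAT2 by -0.46, AACS by 0.65, CH25H by -0.41, EBP by -0.31 and SCD by -0.85, and with shERK1 for CH25H by -0.74. Without array a of shERK2 at day 7 the EBP difference was -0.29 and missed the threshold (adjusted p = 0.055). Leaving out 1 array at a time, 12 fits each, ended further calls. MVK was lost in 5 fits with trametinib and 9 with the ERK inhibitor, TM7SF2 in 1 with trametinib and 3 with MEK162, ACLY with LGX818 in 7, and ABCA1 with trametinib in 8. With shERK2, EBP was lost in 8 and CH25H in 9, and with shERK1 CH25H was lost in 7. SREBF1 with shERK2 passed without array a of day 7 (-0.64, adjusted p = 0.0162). The causes were not tested, and groups of 3 arrays are too small for a test of single outlying arrays.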

How the results depend on the processing

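The counts of listed genes that changed were recomputed under every alternative. The number of all genes passing moved with the setting as well. With array weights at 3 h it went from 1135 to 3735 of 9703 for LGX818 and from 1094 to 5483 for trametinib. The counts below are of listed genes only and stand without such shares. With array weights, which raised calls over all genes too, the counts were 14 for LGX818, 16 for trametinib, 15 for MEK162 and 14 for the ERK inhibitor at 3 h, 19, 23 and 19 for the 24 h against 3 h effects of LGX818, trametinib and MEK162, 16 for DMSO, 12 for shERK1 at day 3, 18 at day 7 and 12 for its day difference, 11 for NT against parental cells at day 3 and 7 for NT between days. With only the groups compared in the fit they were 1 for trametinib and 1 for the ERK inhibitor at 3 h, 4 and 16 for shERK1 at day 3 and day 7, 12 for shERK2 at day 7, 2 for its day difference, 6 for NT against parental cells at day 3 and 2 for NT between days. With all 54 arrays in 1 fit, shERK1 at day 3 gave 4 and NT against parental cells at day 3 gave 5. Without the intensity trend, MEK162 at 3 h and shERK1 at day 3 gave 4 each. The array letter as a replicate block gave 3 for the shERK2 day difference and moved no other count by over 1.5 times. Chosen after the data were seen, the replicate block with only the groups compared gave 4, 1 and 12 for LGX818, trametinib and MEK162 at 3 h, 1 and 15 for shERK1 at day 3 and day 7, 10 for shERK2 at day 7, 9 for shERK2 against shERK1 at day 7, 3 for the shERK2 day difference, 8 and 6 for NT against parental cells at day 3 and day 7, and 1 for NT between days. The causes were not tested.

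Leaving out 1 array at a time gave 2 to 2, 1 to 4, 2 to 3 and 1 to 4 at 3 h for LGX818, trametinib, MEK162 and the ERK inhibitor, 16 to 18, 14 to 17, 15 to 16 and 16 to 20 at 24 h, and 10 to 13, 13 to 16, 11 to 15 and 13 to 16 for the effect of time. It gave 6 to 9 for DMSO, 0 to 2 and 5 to 8 for shERK1 at day 3 and day 7, 12 to 13 and 17 to 19 for shERK2, 10 to 12 and 15 to 19 for shERK2 against shERK1, 0 to 1 and 3 to 8 for the day differences of shERK1 and shERK2, 2 to 3 and 1 to 4 for NT against parental cells, 0 to 0 for NT between days and 0 to 3 for parental cells between days. Of the calls of single genes, 142 of the recomputed values missed the threshold under other alternatives and 2128 kept it, and 199 missed it with an array left out against 1527 that kept it. No value that had been called changed sign. The stricter filter left out TM7SF2, LSS and MVD. RMA values have no detection calls, so signal over background could not be weighed for genes near the threshold.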
